A study of Mus musculus with 6 samples.

Results

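Stromal cells of injured mouse muscle sorted and labelled as CD140a(+)/Sca1(-) were set against the Sca1(+) stromal cells of the same injury, gene by gene. The comparison took the deposited log2 value of the injured CD140a(+)/Sca1(-) library minus the mean of the 2 injured Sca1(+) libraries, CD140a(-)/Sca1(+) and CD140a(+)/Sca1(+). Genes entered when at least 1 of the 3 injured libraries reached a log2 value of 6, which corresponds to 52.7 normalized counts, and 6499 of the 22483 genes in the table did. Of these, 5345 had a value in the CD140a(+)/Sca1(-) library and 1154 stood at the lowest value of the table there, which is a normalized count of 0, and were treated as missing. The 5 genes just inside the limit peaked at 6.0001 to 6.0024 and the 5 just outside it at 5.9958 to 5.9989.

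The samples were 6 libraries of 3' mRNA tags, 1 for each of 3 sorted populations in injured and in control muscle of Swiss white mice aged 8 to 12 weeks. Muscle was injured with cardiotoxin, which is purified from cobra venom and destroys muscle fibers, at 20 uM and was examined on day 3, and the controls were untreated muscles of the opposite leg. All animals received bromodeoxyuridine each day, and all cells were held for 8 h after digestion before sorting so that surface markers could recover. Cells carrying CD45, CD31 or CD11b were excluded from each sort. The labels name tibialis anterior, whereas the study's text on acute injury names the calf muscles, and neither says how many mice went into a library. With 1 library per sort and state there was no replicate, so a gene was called higher or lower only when its log2 value lay at least 3-fold from each of the 2 Sca1(+) libraries in the same direction. A call is a statement about these libraries, and no p-value belongs to it.

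CD140a, the receptor PDGFRA, marks the fibro-adipogenic progenitors of muscle, connective tissue cells that expand after injury, lay down transient matrix and can turn into adipocytes or matrix-producing fibroblasts. Sca1 is a small surface protein held by a lipid anchor, encoded mainly by Ly6a, and most of these progenitors in resting muscle carry it. Fibroblasts of tendon, and cells that differentiate from stromal progenitors, carry less of it.

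In injured muscle the CD140a(+)/Sca1(-) library held higher values of the tendon and connective tissue genes Fmod and Tnmd, of Spp1, Lepr, Lamc1 and Angptl2, and lower values of Ly6a, Ly6c1, Thy1, Gsn and Dpt. Of these, Tnmd and Lepr reached the value limit only in the CD140a(+)/Sca1(-) library, so they had to be higher there. The main fibrillar collagens lay within 3-fold of both Sca1(+) libraries. In all, 578 of 5345 genes (10.8%) were higher than each Sca1(+) library, 627 (11.7%) were lower, and 4140 were not called. Only 1891 genes (35.4%) lay within 2-fold of both Sca1(+) libraries, and 6 genes were 3-fold higher than 1 of them and 3-fold lower than the other. The Sca1(+) libraries themselves lay 3-fold or more apart, in either direction, in 539 of the 5345 genes (10.1%). The median difference over all 5345 genes was 0.13 on the log2 scale, with 54.2% of genes above 0, so small shifts of a gene list are read against that value below. The calls of each list likewise stand beside 10.8% higher and 11.7% lower, and its zeros beside 17.8% of all 6499 genes. The 10.8% and 11.7% are shares of genes with a value, whereas many list counts are over all measured members, zeros included. These are bulk samples, in which fewer cells of a type and less RNA per cell cannot be told apart.

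**Figure D1:**
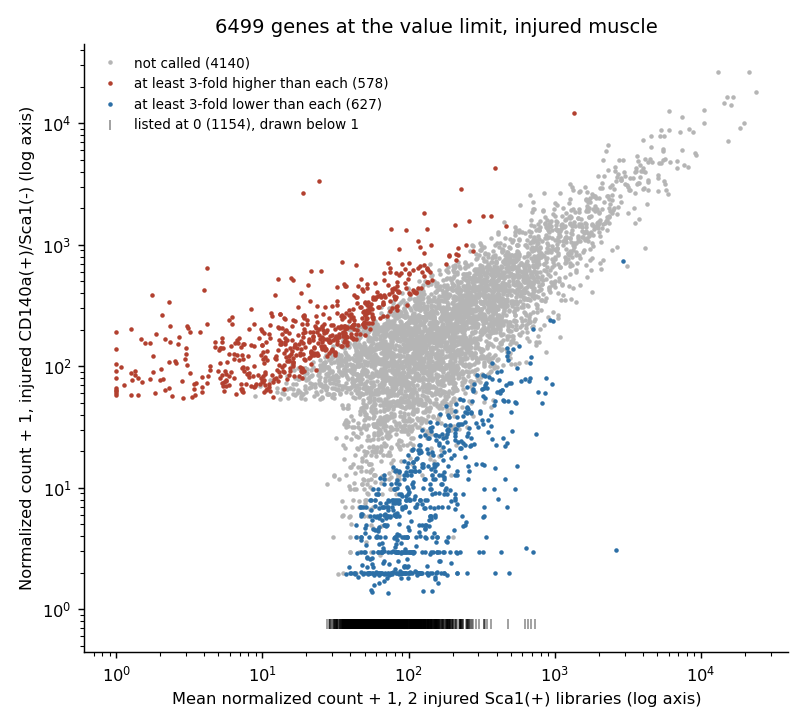
Each point is a gene, with the mean normalized count of the 2 injured Sca1(+) libraries plus 1 on the x axis and the normalized count of the injured CD140a(+)/Sca1(-) library plus 1 on the y axis, both on log axes. The 578 higher genes (red) and 627 lower genes (blue) are spread widest at low counts, and the 1154 genes listed at 0 are drawn as ticks below 1.

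The CD140a(+)/Sca1(-) library differed from the others in how many genes it detected. It listed 69.1% of all genes at 0, against 28.2 to 39.0% in the other 5 libraries. Of 5274 genes that reached 20 normalized counts in all other 5 libraries it listed 928 at 0 (17.6%), whereas each other library, treated the same way, listed between 0 and 2 such genes at 0. Its depth, estimated from the spacing of the low values, was about 2096583 reads, which is near the 2342888 of the control CD140a(+)/Sca1(+) library and below the 4069359 and 14156741 of the injured Sca1(+) libraries. The share of calls also went with expression. Among genes with a mean under 50 normalized counts over the 3 injured libraries 26.5% were higher and 21.7% lower, and among the 362 genes with a mean of 1000 or more the shares were 1.10% and 0.552%. The SD of the difference from CD140a(-)/Sca1(+) went from 2.15 to 0.89 between those levels, while the SD between the 2 Sca1(+) libraries stayed at 0.98 and 0.93. The part of this uneven detection in the calls was not tested, and strongly expressed genes therefore carry the firmer values.

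**Figure D2:**
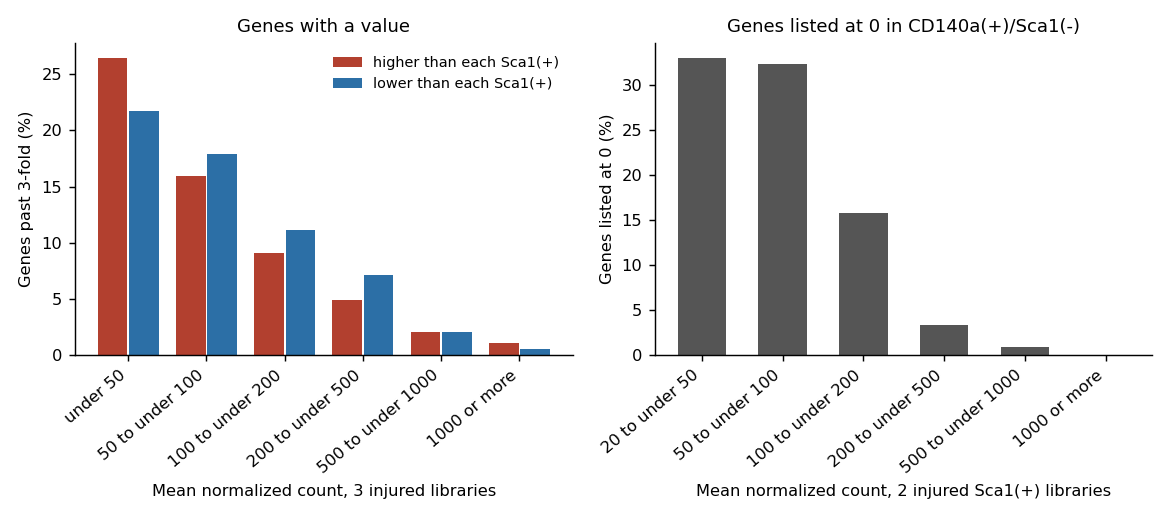
Left, percent of genes at least 3-fold higher (red) or lower (blue) than each injured Sca1(+) library, by the mean normalized count of the 3 injured libraries; right, percent of genes listed at 0 in injured CD140a(+)/Sca1(-), by the mean of the 2 injured Sca1(+) libraries. The called share goes from 26.5% and 21.7% in the lowest class to 1.10% and 0.552% in the highest, and the share listed at 0 from 33.0% at 20 to under 50 to 0 at 1000 or more (genes under 20, which entered only through CD140a(+)/Sca1(-), are not drawn).

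The genes behind the sort were examined before the rest. Ly6a (chr15:74994877-74998031 in GRCm38) had 2.09 normalized counts in the injured CD140a(+)/Sca1(-) library, against 1177 in CD140a(-)/Sca1(+) and 4099 where both markers were present. The CD140a(+)/Sca1(-) value rests on about 2 reads, with an exact Poisson interval of 0.279 to 7.29 at 95% that covers counting error only. Ly6a thus followed the Sca1 label, and it did so in control muscle as well, where the counts of the same sorts were 70.4, 5850 and 253. Pdgfra (chr5:75152292-75198215), the gene of CD140a, went against its label. It had 203 normalized counts in injured CD140a(+)/Sca1(-) and 335 in CD140a(-)/Sca1(+), the sort labelled negative for CD140a, against 1240 in CD140a(+)/Sca1(+). The control libraries gave 33.6, 211 and 26.3 in the same order, so the sort labelled negative had the highest value there. Whether the message departed from the surface protein or the CD140a labels of these sorts did not match the cells was not tested, and each sort is named below as it was labelled. The genes of the excluded surface markers were low in every injured library. Ptprc, which encodes CD45, was listed at 0 in CD140a(+)/Sca1(-), with 2.50 and 0.533 in the Sca1(+) libraries, and Pecam1, which encodes CD31, was listed at 0, with 1.39 and 1.51. Itgam, which encodes CD11b, had 27.5, 22.5 and 8.48.

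Ly6a was not alone among the small lipid-anchored surface proteins. Ly6c1, its neighbor on chromosome 15 and a family member, had 1.96 normalized counts against 524 and 901. Thy1, which encodes CD90 on fibroblasts, had 0.907 against 64.0 and 50.4. Of 6 measured genes of the Ly6 and lipid-anchored list 3 were lower, none was higher, and 2 lay above 0. The median difference was -2.22. The list includes Ly6a, whose low value follows from the sort and enters both the lower calls and the median. Ly6 genes resemble each other closely, and reads shared between copies could not be separated here.

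The fibro-adipogenic progenitor list was read without its gate genes, Ly6a and Pdgfra. Of its 24 other measured members 20 had a value, 4 were lower, 2 were higher and 4 were listed at 0. The median difference was -0.59, and 6 of 20 lay above 0, against 54.2% of all genes. The medians were -0.94 against CD140a(-)/Sca1(+) and -0.35 against CD140a(+)/Sca1(+). Summed over the 32 genes, these markers took 0.608% of the normalized counts in CD140a(+)/Sca1(-), against 0.956% and 0.708% in the Sca1(+) libraries. Gsn, which encodes the actin-severing protein gelsolin, had 74.9 normalized counts against 657 and 674. Bicc1, an RNA-binding protein gene, had 4.78 against 259 and 383, and Tcf7l2, the Wnt-responsive transcription factor used to mark muscle connective tissue fibroblasts, had 3.47 against 53.0 and 62.7. Dpt, which encodes the matrix protein dermatopontin and is widely expressed in Sca1(+) fibroblasts, had 26.5 against 965 and 515. It belongs to the matrix glycoprotein list and is not counted in the progenitor list. Col15a1, a basement membrane collagen gene, went the other way at 147 against 3.40 and 6.73. Nt5e, which encodes the surface nucleotidase CD73, had 55.0 against 3.51 and 1.06. Osr1, a transcription factor of developing and injured muscle stroma, had 0.981 against 32.3 and 48.2, and Hic1, a quiescence-associated factor of stromal progenitors, was listed at 0 against 18.3 and 7.95, but neither reached the limit of 6.

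Tendon genes stood on the other side. All 12 measured members of the tendon and paratenon list had a value, 2 were higher and 1 was lower, beside 10.8% and 11.7% of all genes. Of the 12, 10 lay above 0, against 54.2% of all genes, and the median difference was 0.93. Fmod (chr1:134037254-134048277), which encodes fibromodulin, a collagen-binding proteoglycan of tendon, had 640 normalized counts against 71.2 and 75.2, a ratio of 8.99 and 8.50. Tnmd (chrX:133850980-133865577), which encodes tenomodulin, a membrane protein of mature tendon cells, had 200 against 25.3 and 21.2. Aspn, the small proteoglycan asporin, had 689 against 235 and 41.9, and was not called because it missed 3-fold against CD140a(-)/Sca1(+). Col12a1, a fibril-associated collagen of tendon, was the exception at 5.38 against 152 and 47.4. Together the 25 list genes in the table took 0.414% of the normalized counts, against 0.254% and 0.190%, and 8 of them were listed at 0 in CD140a(+)/Sca1(-). These sums include Egr1, an immediate early gene whose counts are given below and which is not particular to tendon.

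Of 5 measured chondrogenic and osteogenic genes 3 were higher and 1 was lower. Sox5, a transcription factor of cartilage, had 340 normalized counts against 34.8 and 5.63. Spp1, which encodes the matrix and cytokine-like protein osteopontin, had 636 against 178 and 85.8, and Msx1, a homeobox gene of skeletal progenitors, had 82.4 against 13.6 and 20.1. Runx2, the bone-forming transcription factor, had 16.5 against 189 and 197, and Sox9 was not called at 538 against 474 and 284. Members of this short list therefore lay on both sides, although its median difference was 1.79.

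Contractile and myofibroblast genes were higher only in part. All 16 measured myofibroblast genes had a value, 2 were higher and none was lower, with the higher share near the 10.8% of all genes. The median difference was 0.87 with 11 of 16 above 0. Cthrc1, a secreted protein of activated fibroblasts, had 188 normalized counts against 24.1 and 47.7. Cnn1, the smooth muscle calponin, had 100.1 against 6.69 and a listed 0, and Des, the muscle intermediate filament desmin, had 478 against 64.6 and 37.6. Postn, which encodes periostin, had 5919 against 2237 and 2267, below the 3-fold limit although higher than both. Acta2, the smooth muscle actin gene by which myofibroblasts are usually recognized, lay between the Sca1(+) libraries at 392 against 224 and 867.

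The bulk of the collagen message did not separate the populations. None of the 7 measured fibrillar collagen genes was called, and all 7 had a value. Col1a1 had 12760 normalized counts against 12744 and 8114, and Col1a2 had 26346 against 23272 and 19199. Col3a1 was lower at 9978 against 24650 and 14654, within 3-fold. Of 11 other collagens 2 were higher and 2 lower. Col23a1, a membrane collagen, was higher at 104 against 20.6 and 20.0, and Col6a3, a subunit of the beaded collagen around muscle fibers, was lower at 77.1 against 426 and 310.

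Matrix glycoproteins split evenly, with 4 of 56 measured members higher, 4 lower and 5 listed at 0. Lamc1, the gamma subunit common to most laminins, had 922 normalized counts against 83.1 and 86.9, and Ecm1 had 617 against 94.6 and 176. Emilin1 and Emilin2, elastic fiber glycoproteins, were lower, at 0.981 against 16.7 and 60.4 and at 18.6 against 87.9 and 198. Among 25 measured genes of collagen processing 2 were higher and 3 lower. The prolyl hydroxylase gene P4ha3 had 120 against 8.11 and 5.78, while Fkbp10, a collagen chaperone gene, had 24.5 against 96.2 and 246, and Creb3l1, a membrane-bound transcription factor that drives collagen secretion, had 6.87 against 132 and 106.

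Matrix proteases and their inhibitors also lay on both sides, with 3 of 34 higher, 3 lower and 4 listed at 0. Of the 34, 30 had a value, and 10.8% and 11.7% of all genes with a value were higher and lower. Zeros made up 17.8% of all members. Mmp13, an interstitial collagenase gene, had 600 normalized counts against 120 and 157, Adam8 had 157 against 19.1 and 37.1, and Reck, a membrane-anchored inhibitor of metalloproteinases, had 133 against 9.79 and 9.54. Mmp9, a gelatinase gene, had 22.6 against 605 and 330, Mmp19 had 7.56 against 97.4 and 80.0, and Plau, which encodes urokinase, had 2.84 against 131 and 25.6. Mmp3, the stromelysin gene, was lower than both at 668 against 1849 and 4365 but missed the limit against CD140a(-)/Sca1(+). Unlike Reck, the inhibitor genes Timp1 and Timp2 were not called, at 1097 against 976 and 1090 and at 1071 against 1854 and 1128.

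**Figure D3:**
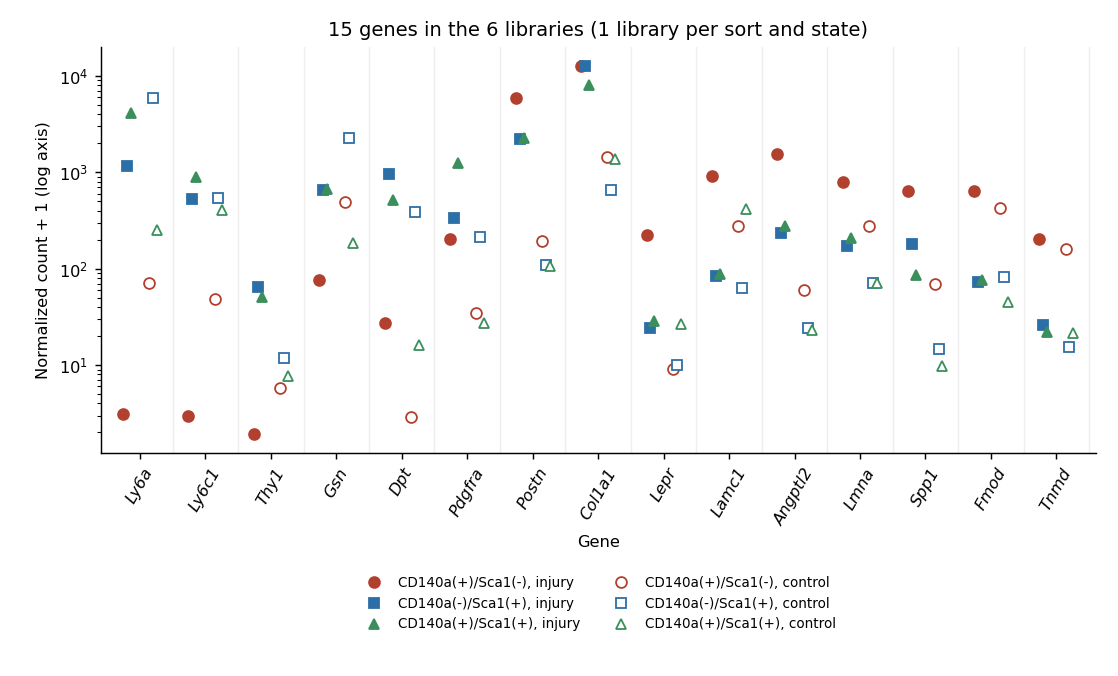
Normalized counts plus 1 on a log axis for 15 genes in each of the 6 libraries, 1 point per library, with filled symbols for injured and open symbols for control muscle and 1 shape per sort. In injured muscle the CD140a(+)/Sca1(-) point lies lowest for Ly6a, Ly6c1, Thy1, Gsn and Dpt and highest for Lepr, Lamc1, Angptl2, Lmna, Spp1, Fmod and Tnmd, while Col1a1 differs little between sorts.

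Among the signals that stromal cells send and receive, Wnt genes lay mostly above 0. Of 14 measured 12 had a value, 11 of 12 lay above 0 and the median difference was 1.05. Of these 12 genes 2 were higher and 1 was lower, beside 10.8% and 11.7% of all genes. The list is too short to set its share of calls apart from those. Lef1, the nuclear partner of beta-catenin and itself a target of the pathway, had 126 normalized counts against 1.26 and 2.75, and the receptor gene Fzd7 had 165 against 10.5 and 13.2. Sfrp4, a secreted Wnt antagonist, was lower at 34.1 against 339 and 146. The antagonists Sfrp1 and Sfrp2 were not called, at 298 against 278 and 167 and at 599 against 460 and 181.

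Growth factor genes and their receptors gave 1 higher and 2 lower of 20 measured, with 4 listed at 0. Angptl2, a secreted angiopoietin-like factor, had 1563 normalized counts against 236 and 279, among the most abundant of the higher genes. Nrg1, a ligand of ErbB receptors, had 2.42 against 103 and 59.1, and Igf2r had 30.4 against 123 and 467. Igf1 was not called at 159 against 379 and 186. Fgf2 was listed at 0 against 210 and 192. No gene of the BMP list was called, and 5 of its 15 measured members were listed at 0, where 17.8% of all members were. Of the other 10, 9 lay above 0. In the TGF-beta list 1 of 19 was lower, the co-receptor gene Tgfbr3 at 6.54 against 91.5 and 74.7.

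Of 15 adipogenic and lipid storage genes 2 were higher, none was lower and 1 was listed at 0, beside 10.8%, 11.7% and 17.8% of all genes. The median difference was 1.08, with 11 of 14 above 0. Lepr, the leptin receptor gene that marks stromal cells of bone marrow and other tissues, had 223 normalized counts against 22.99 and 27.8, and Zfp423, a factor of preadipocyte commitment, had 68.8 against 4.07 and 14.6. Both reached the value limit only in CD140a(+)/Sca1(-), so they had to be higher there. The adipocyte genes Cd36 and Fabp4 were not called, at 312 against 125 and 89.3 and at 156 against 47.2 and 298.

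Inflammatory genes lay on both sides. In the NF-kB list 2 of 18 were higher and 1 lower, beside 10.8% and 11.7% of all genes. Nfkbie, an inhibitor that NF-kB itself induces, had 270 normalized counts against 37.0 and 12.7, and the leukocyte adhesion gene Icam1 had 359 against 63.9 and 94.9, whereas Tnfaip2 had 21.1 against 185 and 337. Vcam1 at 1719 against 2180 and 339 and Tnfaip6 at 1318 against 1984 and 84.8 lay near CD140a(-)/Sca1(+) and well above CD140a(+)/Sca1(+), so that the Sca1(+) libraries differed more from each other than CD140a(+)/Sca1(-) did from the nearer of them. Interferon-stimulated genes held no higher member among 26 measured, 2 lower and 8 listed at 0. Oas1a, an antiviral nucleotide synthetase gene, had 5.89 against 104 and 211, and Ifi44 had 7.85 against 62.4 and 350. The medians of the interferon list were 0.07 against CD140a(-)/Sca1(+) and -1.29 against CD140a(+)/Sca1(+). Among 13 measured MHC class I and immunoproteasome genes 6 were listed at 0, and 1 of the 7 with a value was lower, near the 11.7% of all genes. Cfb, a protease gene of the complement system, was lower at 137 against 466 and 569. Among 16 measured chemokine genes 1 was lower, Ccl6 at 10.8 against 139 and 365, and 4 were listed at 0. The zeros of the interferon, MHC and chemokine lists stand beside 17.8% of all members listed at 0. That share was 32.3% among members with a Sca1(+) mean of 50 to under 100 normalized counts.

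Proliferation genes differed between the Sca1(+) libraries themselves. The medians of the S phase list were 0.37 against CD140a(-)/Sca1(+) and -1.28 against CD140a(+)/Sca1(+), and those of the mitosis list were 1.14 and -0.60. Of 28 measured S phase genes 2 were lower and 7 listed at 0, with the DNA ligase gene Lig1 at 8.68 normalized counts against 101 and 284. Mitotic genes lay on both sides. Ccna2, the cyclin of S phase and mitotic entry, had 1.96 against 85.5 and 521, and Birc5, which encodes survivin, had 0.402 against 28.8 and 220, while the kinetochore gene Ndc80 had 164 against 6.29 and 21.2.

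Genes of basic cell upkeep allowed a check on strongly expressed transcripts. Of 79 ribosomal protein genes none was listed at 0, 1 was higher and 2 were lower, and the median difference was 0.04. Rpl29 was the higher gene at 679 normalized counts against 29.0 and 55.9, and genes of this family share near-identical pseudogenes, so their counts are uncertain. All 13 mitochondrially encoded genes had a value, 12 of them above 0, with a median of 0.89, 1 higher and 1 lower. mt-Nd3, a subunit of respiratory complex I, had 12233 against 1133 and 1550, the highest count of any called gene, and mt-Atp8, which overlaps mt-Atp6, had 6.87 against 372 and 41.3. Nuclear-encoded respiratory subunits had a median of 0.00, with 1 of 65 higher, 5 lower and 10 listed at 0. Immediate early genes, which respond to cell isolation, were not called in any of 25 members with a value, as in Jun with 3582 against 3219 and 2105 and Egr1 with 2771 against 1692 and 1281. Heat shock chaperones had 2 of 19 called lower and 4 listed at 0, near the 11.7% and 17.8% of all genes, and medians of -0.18 against CD140a(-)/Sca1(+) and -1.35 against CD140a(+)/Sca1(+). Proteasome subunits gave 1 of 28 higher, 4 lower and 5 listed at 0. In glycolysis 4 of 26 genes were lower, among them Pkm, the last enzyme of the pathway, at 40.4 against 182 and 352, and 1 was higher, Eno1 at 516 against 155 and 133. In the secretory pathway list 4 of 41 were lower and none was higher, with the signal peptidase gene Spcs1 at 1.03 against 165 and 144. Of the called genes named so far, Spp1, Msx1, Ecm1, Zfp423 and Eno1 fell short of 3-fold when the medians of the 3 libraries were set equal, and Col12a1, Emilin1, Emilin2, Fkbp10, Plau, Eno1 and mt-Atp8 did so under quantile normalization.

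**Figure D4:**
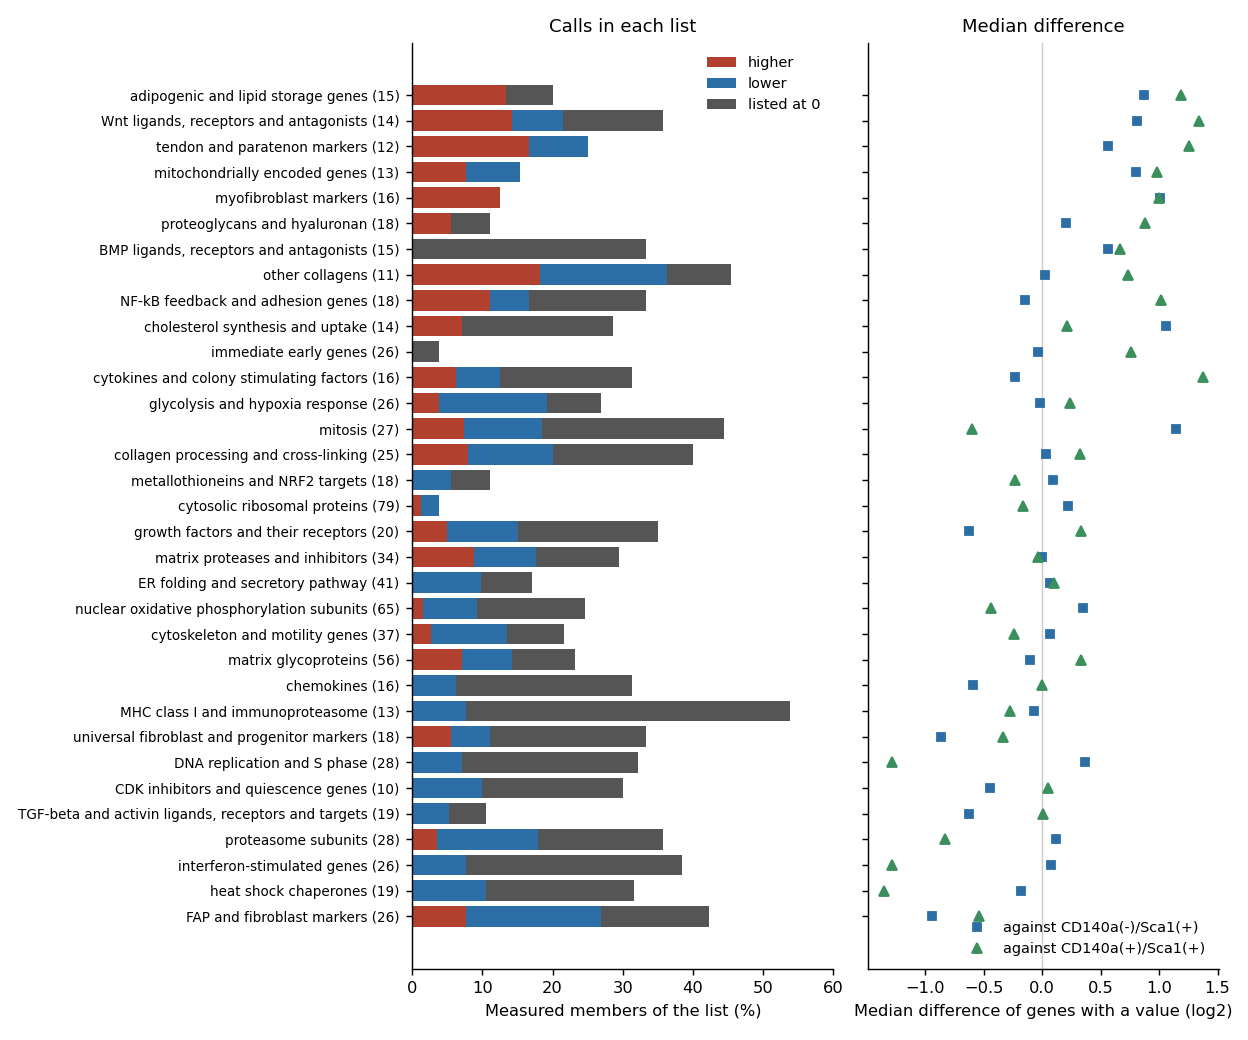
For each gene list with at least 10 measured members (number in parentheses), the left bars give the percent of members higher (red), lower (blue) or listed at 0 (gray) in injured CD140a(+)/Sca1(-), and the right points give the median log2 difference of members with a value against each Sca1(+) library. The medians of the tendon, Wnt, adipogenic, myofibroblast and mitochondrially encoded lists lie above 0 against both libraries. That of the progenitor list, drawn here with its gate genes Ly6a and Pdgfra, lies below 0 against both. The medians of the mitosis, S phase and interferon lists change sign between them.

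Markers of other cells summed to small shares of the counts. Among 40 leukocyte markers 25 were listed at 0 in CD140a(+)/Sca1(-), a library that listed 69.1% of all genes at 0, and their summed level was 0.083% of normalized counts against 0.067% and 0.036%. Of the 7 that reached the limit, 6 lay above 0, 2 were higher, and the median difference was 1.10. Tyrobp, a signaling adaptor of myeloid and natural killer cells, was higher at 222 normalized counts against 13.4 and 2.01, and Cd68, a lysosomal protein of macrophages, had 114 against 13.1 and 23.4, while the pan-leukocyte gene Ptprc was listed at 0. Tyrobp and Cd68 reached the value limit only in CD140a(+)/Sca1(-), so they had to be higher there. Endothelial markers summed to 0.028% against 0.024% and 0.039%, with 24 of 30 listed at 0. Hemoglobin and other red cell genes were all listed at 0, whereas CD140a(+)/Sca1(+) held Hbb-bs at 336 and Hba-a2 at 246. Satellite cell markers summed to 0.125% against 0.114% and 0.021%, mostly from Vcam1 and Des, which stromal or contractile cells also express. Myofiber genes summed to 0.012% against 0.009% and 0.010%, and Atp2a1, the calcium pump of fast fibers, had 125 against 9.94 and 0.901. The part of these cells in the differences was not tested.

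None of the 20 genes with the largest positive differences belonged to a gene list. All 20 reached the value limit only in the CD140a(+)/Sca1(-) library, so they had to be higher there. Erlin1 (chr19:44034944-44069785), which encodes a lipid raft protein of the endoplasmic reticulum, had 3335 normalized counts against 8.72 and 37.8, and Tmem170 had 2649 against 22.4 and 13.8. Zkscan5, a zinc finger gene, had 644 against 4.96 and 1.35. Several of the 20 largest are known for other tissues, such as the G protein subunit gene Gng7 of the striatum at 385 against 0.409 and 1.11, the neuronal factor Fgf14 at 203 against a listed 0 and 0.504, the neural stem cell receptor Nr2e1 at 167 against 0.439 and 0.530, and the olfactory receptor gene Olfr221 at 425 against 4.49 and 1.48. Of the higher genes, 426 of 578 passed the limit only through the CD140a(+)/Sca1(-) library, so they had to be higher there. Among these 426 are Tnmd, Lepr, Zfp423, Lef1, Fzd7, Sox5, Msx1, Cthrc1, Cnn1, Reck and P4ha3. Col15a1, Nt5e, Col23a1, Adam8, Nfkbie, Ndc80, Tyrobp, Cd68 and Atp2a1 are among them too. Such members raise the medians of their lists. Of the 578, 44 were listed at 0 in at least 1 Sca1(+) library. Olfactory or vomeronasal receptor genes made up 17 of the 578, out of 67 among the members. The limit was reached by 45 of them in the CD140a(+)/Sca1(-) library and by 37 and 27 in the Sca1(+) libraries. The giant nuclear envelope genes Syne1 and Syne2 were both among the 20, at 526 against 13.6 and 15.7 and at 523 against 10.2 and 13.6, as was the interferon-inducible membrane gene Ifitm1 at 213 against 2.51 and 1.61.

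At higher levels the list was shorter. Of 1995 genes whose mean reached 200 normalized counts over the 3 injured libraries, a limit chosen after the values were seen, 72 were higher and 96 lower. Beside Erlin1 and mt-Nd3, the higher genes whose mean reached 1000 were Nktr, a cyclophilin-related gene, at 4278 against 455 and 328, and Suco, a gene tied to collagen secretion by bone cells, at 2847 against 328 and 128. Stam, an endosomal sorting gene, had 1820 against 140 and 113, and Tspan5, a tetraspanin gene, had 1340 against 65.7 and 84.7. The mean includes the CD140a(+)/Sca1(-) library itself. Erlin1, Nktr and Suco reached 1000, and Stam and Tspan5 reached 200, only through their counts in that library.

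Among the 20 largest negative differences with at least 10 normalized counts in CD140a(+)/Sca1(-), housekeeping genes stood beside surface and matrix genes. Sars, a transfer RNA synthetase gene, had 14.0 against 650 and 451, and Crebbp, a histone acetyltransferase gene, had 21.1 against 501 and 414. S1pr2, a sphingosine phosphate receptor gene, had 10.7 against 425 and 490, and Fermt2, an integrin activator, had 24.0 against 463 and 283. Of the lower genes 401 of 627 had fewer than 10 normalized counts in CD140a(+)/Sca1(-), where 3 reads amount to 2.94 normalized counts. Aldh2, a mitochondrial aldehyde dehydrogenase gene, had 0.981 against 520 and 443, and Pa2g4, a growth regulator, had 5.89 against 404 and 541. Among genes whose mean reached 1000, only Ly6a and the nuclear RNA-binding protein gene Hnrnpu, named after its values were seen, were lower, the latter at 731 against 3346 and 2516.

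The 1154 genes listed at 0 were mostly weak in the Sca1(+) libraries, with a median lower count of 44.8. The share at 0 was 33.0% of genes with a Sca1(+) mean of 20 to under 50 normalized counts, 3.31% at 200 to under 500, and 0 of 352 at 1000 or more. Even so, 144 had at least 100 normalized counts in both Sca1(+) libraries. The strongest were Zmat2, a spliceosome gene, with 539 and 922, Myo10, an unconventional myosin gene, with 588 and 372, and Fbxl2 with 354 and 379. In control CD140a(+)/Sca1(-) cells Zmat2 had 905, Myo10 had 314 and Fbxl2 had 298. Across the 1154 genes 1129 had a value in the control library of the same sort, and 273 had at least 100 normalized counts there. No fold was given for these genes.

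The same contrast in control muscle, which shares no library with the injured contrast, asked whether the differences belonged to the sort in either state. Of 6408 of the same genes with a value, 39 (0.609%) were higher than each control Sca1(+) library and 38 (0.593%) were lower. These genes had been admitted by their injured values, which favors calls in injury. With the limit applied to the control libraries instead, an alternative added once the values were known, 5941 genes had a value and 90 (1.51%) were higher and 56 (0.943%) lower. When each Sca1(+) library of injured muscle was set against the other 2 injured libraries in the same way, 1.36% and 1.35% of 6454 genes were higher and lower for CD140a(-)/Sca1(+), and 5.62% and 1.56% of 6480 for CD140a(+)/Sca1(+). Each of those shares lies below the 10.8% and 11.7% of CD140a(+)/Sca1(-). In control CD140a(+)/Sca1(+), endothelial markers took 2.08% of normalized counts, against 0.210% and 0.267% in the CD140a(+)/Sca1(-) and CD140a(-)/Sca1(+) controls. Red cell genes took 0.587% there, against 0.095% and 0.031%. The study reports its lowest sorting enrichment for that control population. What part these differences had in the control calls was not tested.

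Of the 537 higher genes with a value in control CD140a(+)/Sca1(-), 7 (1.3%) were higher there too, where 0.644% of all 5279 genes with a value in both states were. They are 20.6% of the 34 control-higher genes, beside 10.2% of all those genes called higher in injury. Of 623 lower genes, 4 (0.642%) were lower there too, against 0.493% of all, and they are 15.4% of the 26 control-lower genes, against 11.8%. Most calls in either state thus had no call in the other. The sign of the control difference did not go with the injured call, as 55.5% of the higher genes and 53.5% of the lower genes lay above 0 in control, against 56.5% of all 5279 genes. Across those genes the 2 differences had a Pearson correlation of 0.03, given as a description, since genes are not independent replicates.

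The 7 genes higher in both states included both tendon genes. Fmod had 426 normalized counts in control CD140a(+)/Sca1(-) cells against 81.0 and 44.1 in the Sca1(+) controls, and Tnmd had 160 against 14.4 and 20.3, differences of 2.61 and 2.63 on the log2 scale beside 2.94 and 2.64 in injury. Spp1 (chr5:104435118-104441050) had 68.7 against 13.9 and 8.83 in control. All 3 injured libraries exceeded those control values, and the difference was 1.91 in control and 2.25 in injury. Lmna, which encodes the nuclear lamins A and C, had 800 against 170 and 207 in injury and 280 against 70.9 and 70.1 in control. Slc22a3, an organic cation transporter gene, had 214 against a listed 0 and 2.65 in injury and 28.3 against 1.31 and 0.883 in control. The count of 0.883 rests on about 1 read. The remaining 2, named after their values were seen, were Gpt2, a mitochondrial alanine aminotransferase gene, at 156 against 35.2 and 13.8 in injury and 269 against 32.8 and 33.0 in control, and Map1lc3a, an autophagosome gene, at 304 against 72.1 and 35.5 and 253 against 45.5 and 60.9. In injured muscle Tnmd, Slc22a3 and Gpt2 reached the value limit only in CD140a(+)/Sca1(-), so they had to be higher there. With library medians set equal within each state, Spp1 and Gpt2 no longer passed in both.

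The 4 genes lower in both states were surface proteins. Beside Ly6a, Ly6c1 (chr15:75044018-75048830) had 47.5 normalized counts in control CD140a(+)/Sca1(-) cells against 546 and 406. Cd40, a receptor of the tumor necrosis factor family, had 5.81 against 131 and 122 in injury and 8.88 against 429 and 71.5 in control, and Il3ra, a subunit of the interleukin-3 receptor, had 1.96 against 84.6 and 36.0 and 0.642 against 35.8 and 17.7. The last 2 were named after their values were seen. Several of the strong injured differences had no counterpart in control muscle. Lepr had 8.11 against 9.10 and 25.7 there, Lamc1 had 275 against 62.8 and 420, and Erlin1 had 32.8 against 42.7 and 16.4.

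**Figure D5:**
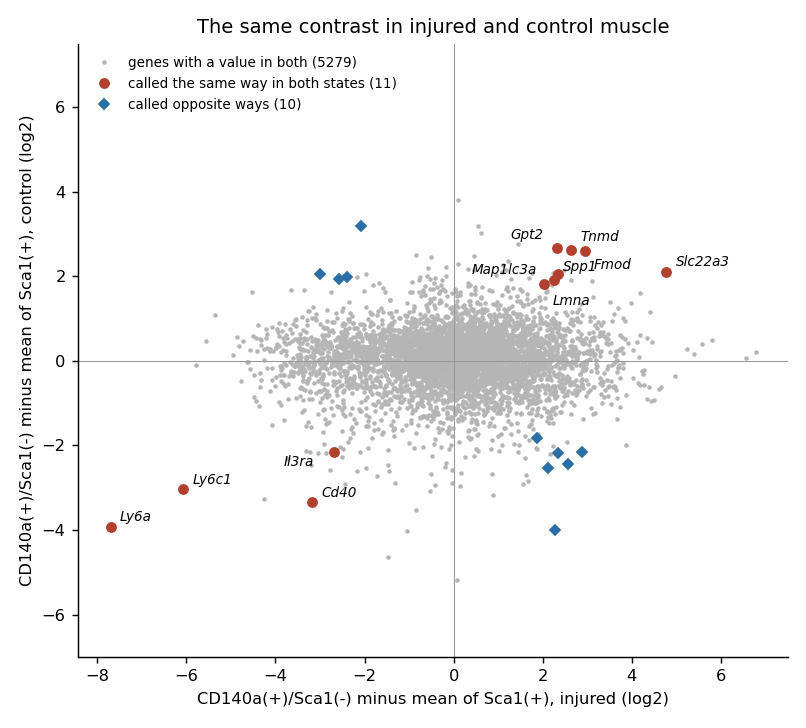
Each point is 1 of 5279 genes with a value in CD140a(+)/Sca1(-) in both states, with the log2 difference from the mean of the Sca1(+) libraries in injured muscle on the x axis and in control muscle on the y axis. Red points are the 11 genes called the same way in both states, blue diamonds the 10 called in opposite ways, and the remaining genes spread more along the injured axis than along the control axis.

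A model fitted across all 5345 genes compared the lone CD140a(+)/Sca1(-) library with the 2 Sca1(+) libraries. By limma's moderated test 736 genes (13.8%) had an adjusted p under 0.05, the lowest being 0.00462, and 1548 (29.0%) had an unadjusted p under 0.05, 783 higher and 765 lower. The fit has 1 residual degree of freedom and takes all of its spread from the difference between the Sca1(+) sorts, whose SD across genes was 0.97. The differences of CD140a(+)/Sca1(-) from those libraries had SDs of 1.65 and 1.74, so the count is given as a description and no gene above is called from it. With quantile normalization no gene passed, the lowest adjusted p being 0.0855 and 1222 genes having an unadjusted p under 0.05.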

How the data were processed

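The deposited table holds log2 values for 22483 genes in 6 libraries, 1 per sort and state. As the study's methods describe, the authors trimmed the tags, aligned them to GRCm38/mm10 with STAR, counted them per gene and normalized the counts with DESeq2; the log2 values have a common lowest value of 2.57 and the form of its variance-stabilizing transformation. Normalized counts were recovered by inverting that transformation with the linear minimum of 5.93, and differences and calls were taken on the deposited log2 scale, which understates folds of weak genes. Depth was estimated from the spacing of low values, of which 58.7 to 67.5% fell within 0.02 of a whole read.

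A call required a 3-fold difference from each Sca1(+) library. Samples were grouped by their titles. The members and the 48 gene lists were chosen with earlier results of these data known. Genes were named if they encoded gate markers or were named by the study, if they were among the 20 largest differences per direction (at least 100 normalized counts in 1 library, and for lower genes at least 10 in CD140a(+)/Sca1(-)), up to 5 called members per list and direction or 3 of a list with none, and the 15 strongest listed at 0. Gene positions come from GENCODE for GRCm38. The scripts were tested on simulated data and used Python 3.11.15, numpy 2.4.6, pandas 2.3.3, R 4.3.3 and limma 3.58.1. Alternatives varied the fold, scale, value limit, centering and reference library. Intervals and floors cover counting error only. Some genes of the lists are not reported here.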

Additional observations from a re-analysis of the deposited data

Results flagged for a closer look

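The 10 genes below were called 3-fold in injured muscle and 3-fold in the opposite direction in control muscle, in each case against both Sca1(+) libraries of that state, and the difference between states was not tested. Higher in injured and lower in control CD140a(+)/Sca1(-) cells were Cd274, the immune checkpoint ligand PD-L1, with log2 differences of 2.27 in injury and -4.01 in control (179 against 33.6 and 23.8 normalized counts, then 3.85 against 319 and 121), S1pr1, a sphingosine phosphate receptor gene, with 2.34 and -2.18, Fcgr2b, an inhibitory antibody receptor gene, with 2.11 and -2.54, Sema7a with 2.58 and -2.43, Eda2r with 2.88 and -2.15, and Pik3r5 with 1.86 and -1.82 (81.5 and then 0.642 normalized counts). Lower in injured and higher in control were the collagen gene Col6a3, with -2.08 in injury and 3.19 in control (77.1 against 426 and 310, then 212 against 6.66 and 26.1), Cp, which encodes the copper-carrying ferroxidase ceruloplasmin, with -2.38 and 1.98, Pfas, a purine synthesis gene, with -3.01 and 2.05, and Specc1 with -2.58 and 1.93. All but Col6a3 were named after their values were seen. In injured muscle Cd274, Fcgr2b, Sema7a, Eda2r and Pik3r5 reached the value limit only in CD140a(+)/Sca1(-), so they had to be higher there. The injured Pfas count of 0.932 and the control Pik3r5 count of 0.642 each rest on about 1 read. These 10 stand beside 11 genes called the same way in both states.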

How the results depend on the processing

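Without replicates, no result has an error beyond the agreement of the 2 Sca1(+) libraries, and 3 reads in injured CD140a(+)/Sca1(-) amount to 2.94 normalized counts, so values below that rest on fewer than 3 reads. No paired analysis was possible because the contrast uses only the 3 injured libraries, 1 per sort, and their labels carry no replicate numbers. The higher and lower counts of 578 and 627 became 1044 and 927 at 2-fold, 272 and 343 at 5-fold, and 191 and 162 with a value limit of 8. With the table minimum kept as a value the lower count was 1722, so that 25.1% of calls were higher instead of 48.0%, because the 1154 genes listed at 0 entered. Requiring at least 100 normalized counts in 1 library and 10 in CD140a(+)/Sca1(-) left 457 higher and 217 lower. The limits on the mean, chosen after seeing the data, left 72 and 96 at 200 and 4 and 2 at 1000. Leaving out 1 Sca1(+) library gave 893 to 903 higher and 763 to 950 lower, since only 1 library had then to be passed. Setting medians equal shifted the median of all genes by 0.23 on the log2 scale and gave 469 and 735, and this and the other scalings, limits and log offsets kept both counts within 1.5 times. Genes listed at 0 numbered 2568 at a limit of 5, 60 at 8 and 15525 with no filter. The limma count of 736 became 12 with unmoderated variances, 0 with quantile normalization, 103 at a limit of 8 and 2139 with the table minimum kept. In control muscle the 39 higher and 38 lower genes became 148 and 126 at 2-fold and 65 and 90 with log2 of normalized counts plus 1, and 90 and 56 with the value limit applied to the control libraries. The genes called in both states were 6 higher and 4 lower with medians set equal, where Spp1 and Gpt2 were no longer called and Dpy19l1 was added. Among the named genes 9 lost their call with medians set equal, 7 with 75th percentiles set equal, 12 with quantile normalization and 49 at 5-fold, and no called one changed sign under any alternative run.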
